A study of Danio rerio with 18 samples.

Results

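The genes described here encode Sinhcaf, the SIN3 and histone deacetylase complex associated factor, and 9 partners in the same co-repressor complex. They were taken from the deposited expression table by gene name: sinhcaf, sin3aa, sin3ab, sin3b, sap30l, sap130a, brms1, brms1la, brms1lb and arid4a. All 10 names were found, among 25432 genes in all, and all 10 passed the filter on low values with 10547 genes tested. The libraries hold messenger RNA of zebrafish, either of mature eggs or of FG follicles, a stage whose abbreviation the labels do not spell out. Eggs were taken from 5 wild-type females and 5 females with the genotype sinhcaf-/-, and FG follicles from 4 females of either genotype, and each library pooled the material of 1 fish. The labels used here give no age, strain or lesion for the mutant line, and no treatment. Expression is given as FPKM, fragment counts scaled by gene length and library size, so levels can be compared between genes.

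The SIN3 complex represses transcription by taking acetyl groups off histones. A SIN3 protein is the scaffold: its paired helix domains bind transcription factors that bring the complex to DNA. In mammals its middle part holds the deacetylases HDAC1 and HDAC2 with the histone-binding proteins RBBP4 and RBBP7. Smaller subunits, among them the SAP, BRMS1 and ARID4 proteins, stabilise this core or connect it with other factors, and SINHCAF, also called FAM60A in mammals, is a subunit that lacks a known enzymatic domain. In growing oocytes transcripts are stored for the egg and the early embryo, and the mature egg is largely silent in transcription.

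Summed FPKM ran from 287120 to 464199 over the 18 libraries and the share of mitochondrial transcripts from 7.64% to 51.0%, lowest in FG follicles of mutants and highest in their eggs. FPKM carry no read counts, so depth is unknown. An estimate from the lowest values gave depths of 0.782 to 1.003 relative to wild-type FG library 1. It searched only a narrow range around equal depth, so larger differences in depth could not be seen. The summed level of 13 oocyte markers was 2303 to 2827 FPKM in wild-type eggs and 1895 to 2379 in mutant eggs. It was 2320 to 2797 FPKM in wild-type FG follicles and 2421 to 2709 in mutant FG follicles. By the limma test given below, 2 of the 13 were higher and 2 lower in mutant eggs, where 15.1% of all tested genes passed. In mutant FG follicles 3 were higher and 4 lower, where 23.5% passed. The summed level of 10 granulosa markers was 27.6 to 37.1 FPKM in wild-type eggs and 37.0 to 135 in mutant eggs. It was 46.0 to 88.8 FPKM in wild-type FG follicles and 106 to 202 in mutant FG follicles. On average 9 of the 10 were under 1 FPKM in eggs and 5 in FG follicles. Of 5 granulosa markers tested by limma, 1 (cyp11a1) was higher in mutant eggs and 0 lower, where 7.35% of all tested genes were higher. In mutant FG follicles 3 (hsd17b1, inha and foxl2b) were higher and 0 lower, where 10.1% were higher. Leukocyte markers summed to 1.16 to 2.34 FPKM in wild-type eggs and 5.61 to 11.5 in mutant eggs, where 7 of 8 were under 1 FPKM in both genotypes. In eggs the leukocyte gene above 1 FPKM was cxcr4b, with means of 1.15 in wild type and 8.34 in mutants, while cd74a was at 0.0306 and 0.0405. Erythrocyte markers summed to 0.231 to 0.366 FPKM in wild-type eggs and 0.383 to 0.825 in mutant eggs. All 7 erythrocyte rows were under 1 FPKM on average in eggs of both genotypes. The granulosa sum was thus higher in mutant FG follicles and the leukocyte and erythrocyte sums in mutant eggs, without overlap. For single tested genes, the genotypes did not overlap for 11.1% in eggs and 29% in FG follicles. The part of these marker sums in the changes of SIN3 genes was not tested. In such bulk libraries fewer cells of a type and less RNA per cell cannot be told apart. Egg libraries 4 and 5 stood apart from egg libraries 1 to 3 in both genotypes, and values within these sets are given where they bear on a result.

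The members spanned more than an order of magnitude in expression. In wild-type eggs the scaffold gene sin3ab was the highest at 21.2 ± 2.33 FPKM (SD, n = 5), followed by arid4a at 16.1 ± 3.96 and brms1 at 9.02 ± 4.19. At the low end stood sap130a at 0.844 ± 0.536 and sinhcaf itself at 0.726 ± 0.509. In wild-type FG follicles arid4a was the highest at 29.2 ± 2.30 FPKM (SD, n = 4), then brms1la at 22.2 ± 2.996, sin3aa at 18.5 ± 2.98 and sin3ab at 17.1 ± 2.75. The order thus differed between stages, and sinhcaf with 2.14 ± 1.12 FPKM and sap130a with 1.32 ± 0.293 were again at the bottom. The level of sinhcaf in wild-type FG follicles was above that of 21.4% of tested genes, and that of brms1la above 74.3%.

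**Figure D1:**
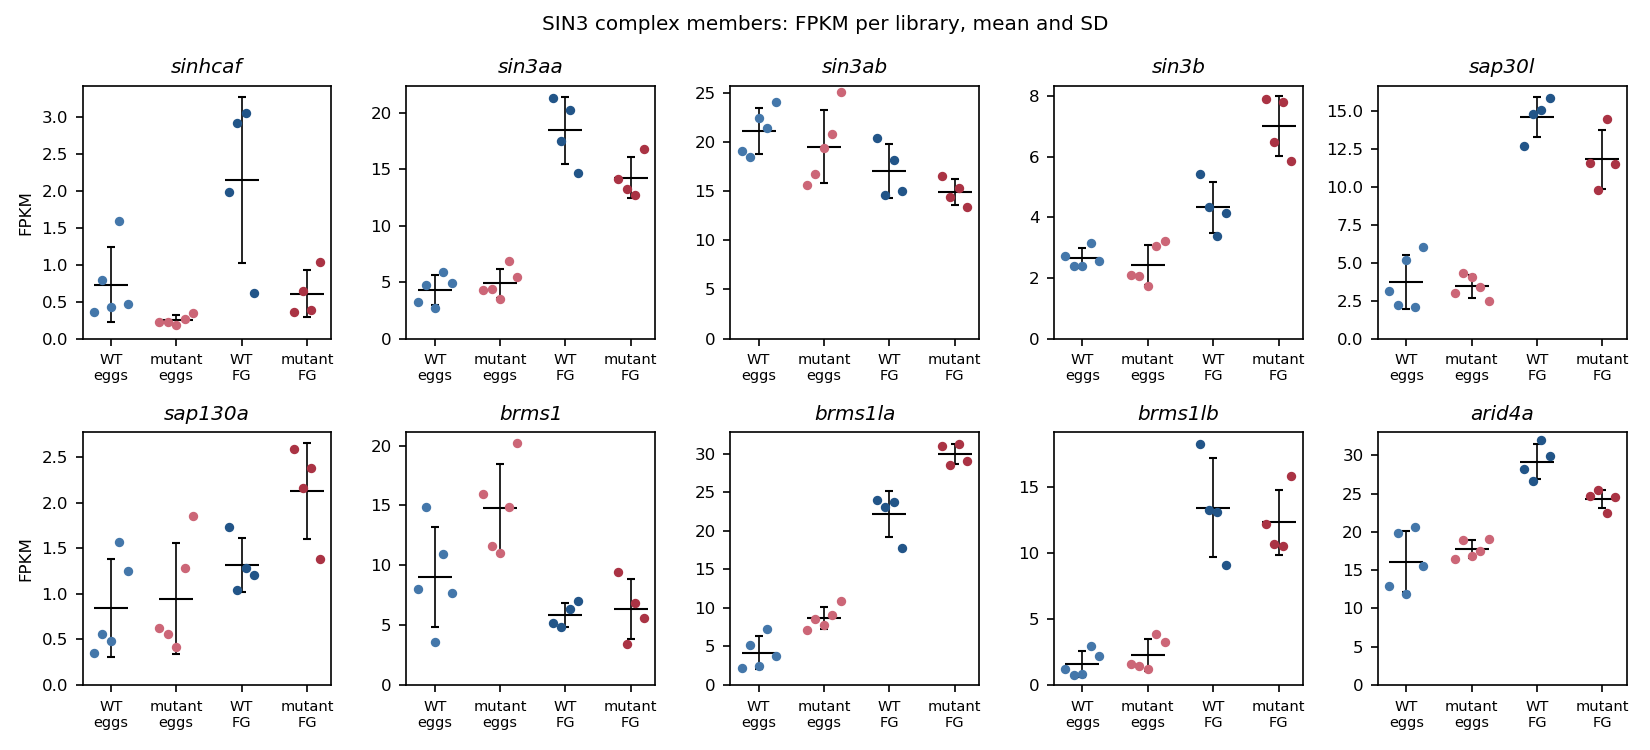
FPKM of the 10 genes in every library (points), with the mean (bar) and SD (whiskers) of each group of 4 or 5 libraries; each panel has its own linear axis from 0. Mutant FG follicles lie above wild type without overlap for sin3b and brms1la and below for arid4a, and mutant eggs lie above most wild-type eggs for brms1la.

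Few partners of sinhcaf differed between mutants and wild type by the test used, limma across all genes with Benjamini-Hochberg adjustment at an adjusted p under 0.05. In eggs brms1la rose, and 0 of the 10 genes fell by limma (2 genes, brms1la and brms1, had an unadjusted p under 0.05, both higher), where 15.1% of all tested genes passed, 7.35% higher and 7.71% lower. In FG follicles sin3b rose and sinhcaf fell, where 23.5% of all tested genes passed, 10.1% higher and 13.4% lower. The counts, 1 and 2 of 10, are near the background of each comparison. The median log2 change of the 10 genes was 0.12 in eggs and -0.13 in FG follicles, beside 0.04 and -0.05 for all genes tested. The difference between the change in eggs and the change in FG follicles passed for 0 of 10 members by limma, against 6.95% of tested genes, and 2 had an unadjusted p under 0.05. Groups did not overlap for 1 member in eggs, sinhcaf, against 11.1% of tested genes, 4.7% higher and 6.37% lower. They did not overlap for 3 members in FG follicles, sin3b and brms1la higher and arid4a lower, against 29% of tested genes, 10.7% higher and 18.2% lower.

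**Figure D2:**
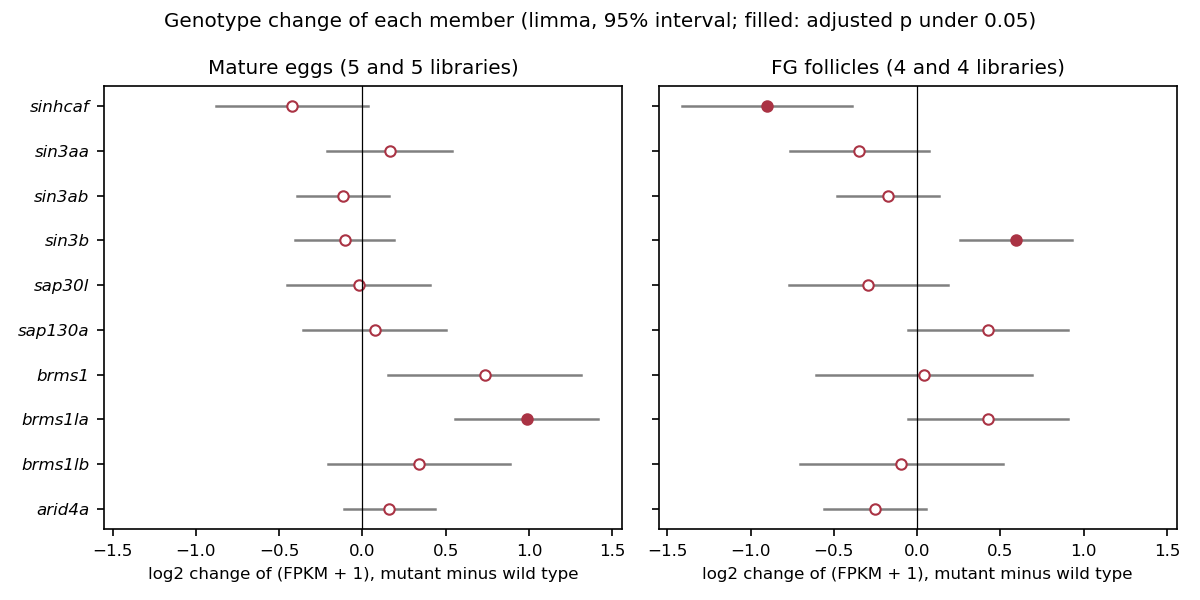
Log2 change of FPKM + 1 from wild type to mutant for each gene (circles) with its 95% interval (lines), in eggs (5 and 5 libraries) and in FG follicles (4 and 4); filled circles have an adjusted p under 0.05. Filled are brms1la in eggs at 0.99, and sin3b at 0.59 and sinhcaf at -0.90 in FG follicles; the interval of brms1 in eggs, 0.15 to 1.31, also lies above 0, with an adjusted p of 0.0817.

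The targeted gene sinhcaf (ENSDARG00000032653) was low everywhere, with a lower mean in mutants at both stages. It reached 1 FPKM in 3 wild-type FG, 1 mutant FG, 1 wild-type egg and 0 mutant egg libraries. It thus passed the filter mainly through wild-type FG follicles, the group where it is high. Wild-type egg libraries 1 to 5 held 0.361, 0.791, 0.421, 1.59 and 0.469 FPKM, and mutant egg libraries held 0.217, 0.220, 0.184, 0.269 and 0.351 FPKM. With FPKM as deposited every mutant egg library lay below every wild-type one, though only just at the closest. The difference was -0.42 on the log2(FPKM + 1) scale, with the smallest p that 5 against 5 libraries can give in a two-sided exact permutation test (0.00794), while limma's adjusted p was 0.210. Deviations of same-numbered egg libraries correlated positively across genes, but the numbers are not shown to pair libraries. With number as a block the exact permutation p was 0.0625, again the smallest possible. With every library rescaled to the same total, the egg groups overlapped and the exact permutation p was 0.0159. The same p was found with mitochondrial genes left out. In FG follicles the wild-type libraries held 1.99, 2.91, 3.05 and 0.615 FPKM and the mutant libraries 0.359, 0.649, 0.383 and 1.04 FPKM. Wild-type FG library 4 lay inside the mutant range. There the change was -0.90 (SE 0.243) with a limma adjusted p of 0.0115 and a p of 0.0857 by exact permutation. It was -1.19 without wild-type FG library 4, the only one of its group inside the mutant range, and leaving out any other library gave exact permutation p of 0.0857 to 0.143. The ratio of means, mutant to wild type, was 0.342 in eggs and 0.283 in FG follicles. The lesion is not described, and the protein was not measured.

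The table also names sinhcafl, a paralogue of sinhcaf, on 2 rows; it was looked at after its values were seen. On row ENSDARG00000095007, sinhcafl stood at 47.3 ± 6.75 FPKM in wild-type FG follicles (SD, n = 4), far above sinhcaf in the same libraries. Its wild-type FG libraries held 39.6, 55.5, 49.2 and 44.8 FPKM, and the mutant ones 30.9, 31.0, 25.0 and 35.3 FPKM, with no overlap. The paralogue fell by 0.61 on the log2 scale in mutant FG follicles (SE 0.168, limma adjusted p = 0.0126). That call was lost after rescaling to TPM, a unit that sums to the same total in every library, where the change was -0.48 with adjusted p = 0.101, or -0.56 with adjusted p = 0.0506 with mitochondrial genes left out. In eggs it was listed at 5.28 ± 0.510 FPKM in wild type and 4.65 ± 1.41 in mutants (SD, n = 5), a change of -0.18 with adjusted p = 0.484. The difference of the changes between stages was 0.43 with adjusted p = 0.267, so a difference in response was not shown. The other row, ENSDARG00000078118, held 34.4 ± 15.5, 40.2 ± 15.7, 31.3 ± 8.76 and 29.6 ± 5.92 FPKM in wild-type eggs, mutant eggs, wild-type FG and mutant FG follicles. A name table gives this identifier the symbol sinhcaflas, whose ending is the one used for antisense RNAs, and whether strand was used in counting is not stated, so the values of the sinhcafl rows are uncertain.

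**Figure D3:**
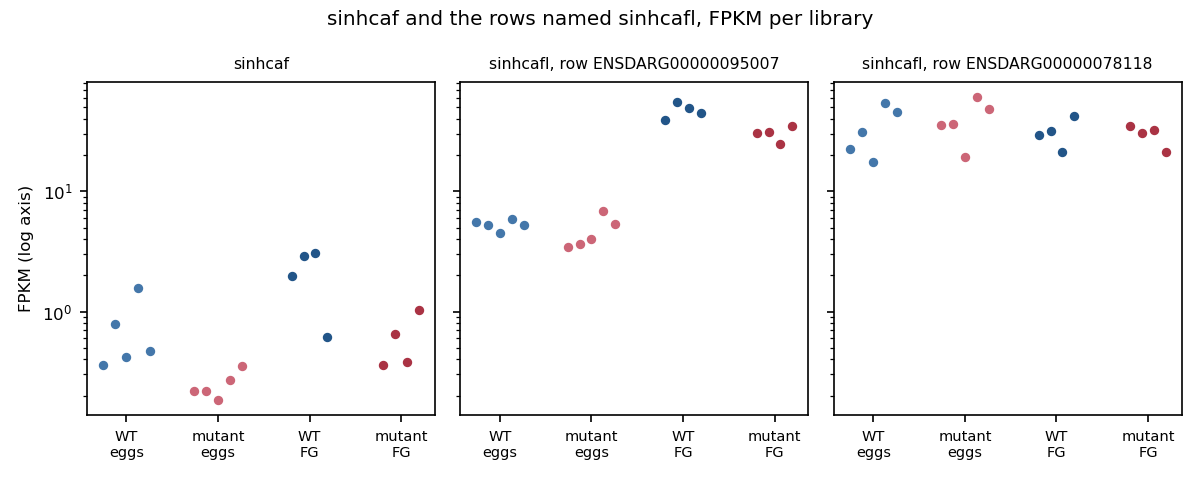
FPKM per library on a log axis for sinhcaf and the 2 rows named sinhcafl. Levels of sinhcaf are between 0.184 and 3.05 FPKM, while the row ENSDARG00000095007 reaches 55.5 FPKM in wild-type FG follicles and lies at 25.0 to 35.3 FPKM in mutant FG follicles.

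Of the scaffold genes, sin3b rose in mutant FG follicles. In mammals SIN3B forms complexes distinct from those of SIN3A. Wild-type FG libraries held 5.44, 4.35, 3.39 and 4.13 FPKM of sin3b and mutant FG libraries held 7.89, 6.48, 7.81 and 5.86 FPKM. The lowest mutant library was above the highest wild-type library, and the change was 0.59 (SE 0.159, 95% interval 0.26 to 0.93, limma adjusted p = 0.0111). In eggs sin3b was at 2.65 ± 0.320 FPKM in wild type and 2.43 ± 0.661 in mutants (SD, n = 5), a change of -0.11 with adjusted p = 0.699. The difference of both changes was -0.70 (SE 0.214) and missed the threshold at adjusted p = 0.0553. With library number as a block the same difference had adjusted p = 0.0440, and after median-of-ratios scaling it was -0.77 with adjusted p = 0.0178. Leaving out mutant egg library 4 or 5, wild-type FG library 1 or mutant FG library 4 gave adjusted p of 0.0429, 0.0304, 0.0304 and 0.0441. The difference still missed the threshold in 19 of 28 alternatives, among them TPM without mitochondrial genes (limma adjusted p = 0.114). Mutant egg libraries 1 to 3 held 1.72 to 2.09 FPKM, below all wild-type egg libraries, and mutant egg libraries 4 and 5 held 3.04 and 3.22 FPKM. The difference was -0.84 (adjusted p = 0.0219) with egg libraries 1 to 3 alone and -0.49 (adjusted p = 0.277) with 4 and 5 alone.

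The zebrafish co-orthologues of SIN3A, sin3aa and sin3ab, did not pass in either stage. In wild-type FG libraries sin3aa was at 21.3, 17.6, 20.3 and 14.7 FPKM and in mutant FG libraries at 14.1, 13.3, 12.7 and 16.8 FPKM. These ranges overlap, and the change of -0.35 had a 95% interval of -0.77 to 0.07 (limma adjusted p = 0.228). In eggs the difference for sin3aa was 0.16 (interval -0.21 to 0.54, adjusted p = 0.623). For sin3ab the differences were -0.12 in eggs (interval -0.39 to 0.16, adjusted p = 0.626) and -0.18 in FG follicles (interval -0.48 to 0.13, adjusted p = 0.426). The sin3ab intervals are the narrowest of the scaffold genes, and leave room for changes of up to 0.48 on this scale.

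The SAP genes among the members, sap30l and sap130a, did not pass either. A relative of SAP30, which helps to join SIN3 to the deacetylases, is encoded by sap30l; it was at 14.6 ± 1.34 FPKM in wild-type and 11.8 ± 1.95 in mutant FG follicles (SD, n = 4), with adjusted p = 0.391, and at 3.71 ± 1.77 and 3.44 ± 0.756 FPKM in eggs (SD, n = 5), with adjusted p = 0.966. A further row annotated as SAP30L-like, ENSDARG00000111916, was at 8.02 ± 1.58 and 6.69 ± 0.605 FPKM in FG follicles, and reads may be shared between such similar genes. The gene sap130a, for a SIN3-associated protein, was at 1.73, 1.05, 1.28 and 1.21 FPKM in wild-type FG libraries and at 2.59, 2.16, 2.38 and 1.38 FPKM in mutant ones. Mutant library 4 lay within the wild-type range, and the change of 0.42 had adjusted p = 0.199. Its co-orthologue sap130b was more abundant than sap130a in FG follicles, with 8.60 ± 0.645 FPKM in wild type and 8.53 ± 0.793 in mutants (adjusted p = 0.955).

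In mammals ARID4A binds the retinoblastoma protein and brings the SIN3 complex to it. Wild-type FG libraries held 28.2, 26.6, 32.0 and 29.9 FPKM of arid4a and mutant FG libraries 24.6, 25.4, 22.5 and 24.6 FPKM. Although the mutant libraries all lay below the wild-type ones, the change was small at -0.25 (SE 0.145, 95% interval -0.56 to 0.05) with a limma adjusted p of 0.229. In eggs arid4a was at 16.1 ± 3.96 FPKM in wild type and 17.8 ± 1.18 in mutants (SD, n = 5; adjusted p = 0.467). The difference of the changes was 0.41 (adjusted p = 0.219).

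The BRMS1 family, named after a breast cancer metastasis suppressor that acts through the SIN3 complex, held the largest change among partners in eggs. Wild-type egg libraries had 2.23, 5.25, 2.41, 7.28 and 3.72 FPKM of brms1la, and mutant egg libraries 7.14, 8.57, 7.79, 9.06 and 10.9 FPKM. Only wild-type egg library 4 reached the mutant range. The gene rose by 0.99 (SE 0.205, 95% interval 0.56 to 1.42, limma adjusted p = 0.00251), with a ratio of mean FPKM of 2.08. The rise was 1.104 within egg libraries 1 to 3 (adjusted p = 0.00272) and 0.81 within egg libraries 4 and 5 (adjusted p = 0.0409). In FG follicles brms1la was at 24.1, 23.1, 23.8 and 17.7 FPKM in wild type and at 31.0, 28.6, 31.2 and 29.1 FPKM in mutants. All mutant libraries were again the higher, but the change of 0.43 (interval -0.05 to 0.91) had adjusted p = 0.195 in the fit of all 4 groups. Fitted on FG libraries alone the adjusted p was 0.0203. The difference of the changes between stages was 0.56 with adjusted p = 0.294.

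The founding member brms1 was at 7.9996, 14.9, 3.63, 10.9 and 7.66 FPKM in wild-type egg libraries and at 15.99, 11.6, 10.98, 14.9 and 20.2 FPKM in mutant ones. The ranges overlap through wild-type egg library 2, and the change of 0.73 (SE 0.275) had a limma adjusted p of 0.0817. Without that library the change was 0.93 with adjusted p = 0.0277. In FG follicles wild type had 5.84 ± 1.02 FPKM of brms1 and mutants 6.33 ± 2.53 (SD, n = 4; adjusted p = 0.940). The third gene, brms1lb, was at 1.58 ± 0.966 and 2.27 ± 1.2001 FPKM in wild-type and mutant eggs (SD, n = 5; adjusted p = 0.431) and at 13.5 ± 3.75 and 12.4 ± 2.47 FPKM in FG follicles (SD, n = 4; adjusted p = 0.855).

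Most members differed between stages by the same test. In wild type 7 of the 10 were lower in eggs than in FG follicles and none was higher, where 82.9% of tested genes passed, 22.1% higher and 60.8% lower. In mutants 7 were lower and 2 higher, where 81.7% passed, 23.4% higher and 58.3% lower. These counts are near the background and depend on the scale, since the median log2 change of all genes was -0.85 in wild type and -0.79 in mutants with FPKM as deposited, -0.14 and -0.12 after median-of-ratios scaling and -1.32 and -1.43 as TPM. After median-of-ratios scaling 3 members were higher and 4 lower in wild type, and 3 higher and 5 lower in mutants. Changes are therefore given relative to the median gene, which removes only part of this dependence. For arid4a in wild type the relative value was 0.003 as deposited and 0.37 after median-of-ratios scaling.

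Relative to that median, brms1lb, brms1la, sin3aa and sap30l were lower in eggs, and brms1 and sin3ab higher. In wild type brms1lb stood -1.68 from the median, brms1la -1.40, sin3aa -1.05 and sap30l -0.96 as deposited, and -1.53, -1.12, -0.77 and -0.69 after median-of-ratios scaling. For sin3ab and brms1 the values in wild type were 1.14 and 1.30 as deposited and 1.498 and 1.55 after scaling. Mutants gave the same signs for these 6 genes, with brms1lb at -1.30 and brms1 at 1.93. In absolute terms sin3ab in mutants was 0.35 higher in eggs as deposited (limma adjusted p = 0.0253), 1.29 after median-of-ratios scaling and -0.13 as TPM, so its direction depends on the scale. That call was lost with library number as a block (0.26, adjusted p = 0.127) and on leaving out mutant egg library 4 or 5 or mutant FG library 2 or 4 (adjusted p = 0.0501, 0.0772, 0.054 and 0.0743). In wild type sin3ab was 0.30 higher with adjusted p = 0.0563, and passed without wild-type egg library 2 (0.0401) or wild-type FG library 1 (0.0226). The direction also depends on the scale for arid4a, which was -0.84 in wild type and -0.43 in mutants as deposited (adjusted p = 1.53e-05 and 0.00768) and 0.23 and 0.52 after median-of-ratios scaling (adjusted p = 0.137 and 0.00229). For sin3b the wild-type value was -0.54 as deposited (adjusted p = 0.00310) and 0.33 after scaling (adjusted p = 0.0268), and the mutant value -1.24 and -0.44. Relative to the median gene sin3b was thus at 0.31 in wild type and -0.45 in mutants. In wild type sinhcaf was -0.82 as deposited (limma adjusted p = 0.00304), 0.03 from the median. Its call was lost after median-of-ratios scaling (-0.25, adjusted p = 0.262), where it stood -0.11 from the median. Relative to the median, sap130a was at 0.48 in wild type as deposited and at 0.30 after median-of-ratios scaling. For brms1 the wild-type change was 0.45 with adjusted p = 0.161, and 0.70 with adjusted p = 0.0166 without wild-type egg library 3. For sap130a it was -0.37 (adjusted p = 0.125), -0.50 without wild-type egg library 4 (0.038) and 0.16 after median-of-ratios scaling.

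**Figure D4:**
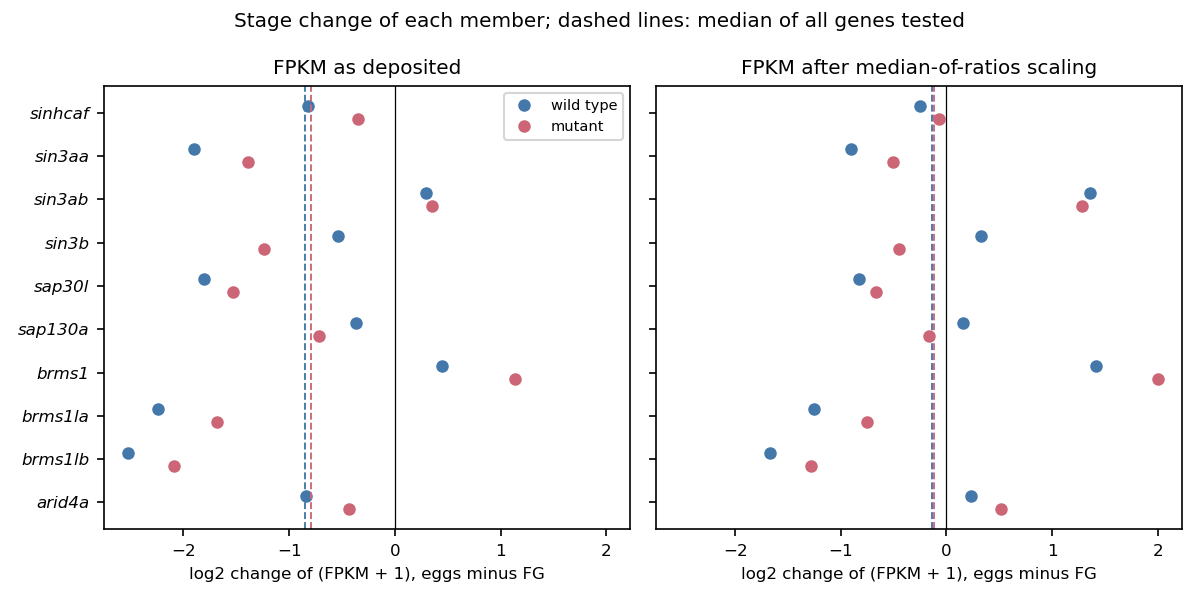
Log2 change of FPKM + 1 from FG follicles to eggs for each gene in wild type and in mutants (circles), with the median of all tested genes (dashed lines), as deposited on the left and after median-of-ratios scaling on the right. Scaling shifts the wild-type median from -0.85 to -0.14, and in both panels brms1lb, brms1la, sin3aa and sap30l lie to the left of it and sin3ab and brms1 to the right.

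Shares within a gene family do not depend on how a library is scaled. Of the summed FPKM of sin3aa, sin3ab and sin3b, the sin3ab share was 75.3% ± 4.33 in wild-type eggs (SD, n = 5) and 42.9% ± 1.89 in wild-type FG follicles (SD, n = 4). The sin3aa share was 15.2% ± 3.96 in wild-type eggs and 46.2% ± 2.41 in wild-type FG follicles. Eggs thus carried mostly sin3ab among the scaffold transcripts, and FG follicles about as much sin3aa. By limma 4 of 5 tested granulosa markers were also lower in eggs in either genotype. Of all tested genes 60.8% were lower in wild type and 58.3% in mutants. The part of follicle cells in such family shares was not tested. The sin3b share was 9.46% ± 1.13 in wild-type and 8.94% ± 1.17 in mutant eggs. It was 10.9% ± 1.90 in wild-type FG follicles, with libraries from 8.09% to 12.2%, and 19.3% ± 2.38 in mutant FG follicles, with libraries from 16.2% to 21.8%. The sum of the 3 scaffold genes was 39.9 ± 5.93 FPKM in wild-type and 36.2 ± 1.78 in mutant FG follicles, and 28.1 ± 2.89 and 26.9 ± 5.12 in eggs.

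Among the BRMS1 genes, brms1 led in eggs and brms1la in FG follicles. The brms1 share was 60.5% ± 9.51 in wild-type eggs (SD, n = 5) and 14.5% ± 4.45 in wild-type FG follicles (SD, n = 4). The brms1la share was 28.3% ± 6.58 and 53.5% ± 2.49, and the brms1lb share 11.2% ± 4.79 and 32.0% ± 4.82. In mutants the brms1la share was 34.4% ± 4.72 in eggs and 61.9% ± 4.46 in FG follicles. Its mutant FG libraries ran from 57.5% to 66.9% and its wild-type FG libraries from 50.6% to 56.1%, without overlap. The family sum was 14.8 ± 6.20 FPKM in wild-type eggs and 25.7 ± 5.73 in mutant eggs, and 41.5 ± 5.73 and 48.7 ± 4.31 in FG follicles. No test is given for these shares, which were formed from genes chosen with results known.

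**Figure D5:**
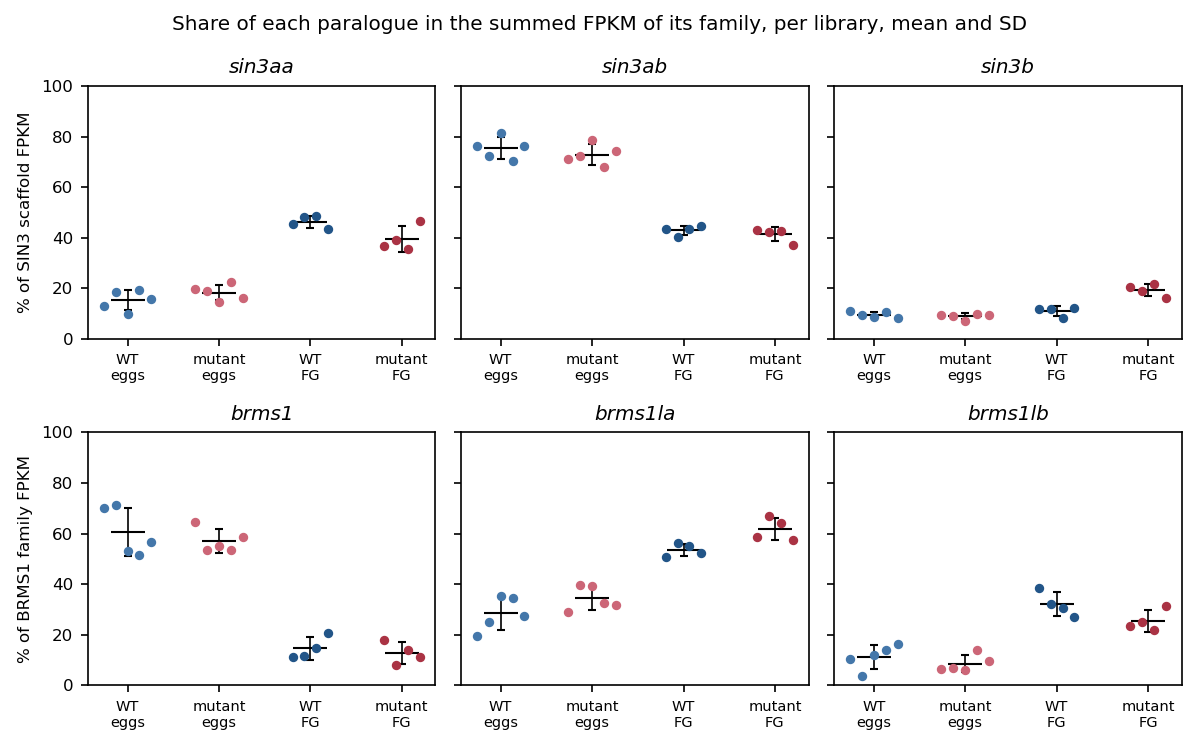
Share of each paralogue in the summed FPKM of the SIN3 scaffold genes (upper row) and of the BRMS1 genes (lower row), in percent, per library (points) with the mean (bar) and SD (whiskers). The sin3ab share is 75.3% in wild-type eggs and 42.9% in wild-type FG follicles, and the sin3b share of mutant FG follicles, 16.2% to 21.8%, lies above that of wild type, 8.09% to 12.2%.

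Variation among eggs of 1 genotype had a shared part. With genotypes pooled, all egg libraries 4 and 5 lay above all egg libraries 1 to 3 for sin3aa, sap130a and brms1lb. These are 3 of the 10 genes, where 13.6% of tested genes did so and 1.21% lay below. For sap130a the means were 0.465 and 1.41 FPKM in wild type and 0.535 and 1.57 FPKM in mutants, for libraries 1 to 3 and for 4 and 5. For brms1lb they were 0.918 and 2.58 FPKM in wild type and 1.41 and 3.55 FPKM in mutants. The means of the egg sets thus lay farther apart than those of the genotypes for both genes.

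Other subunits of the complex were on a list of 28 symbols, of which 19 are in the table, and 18 rows were tested, with ogt.1 on 2 of them. In eggs phf12b rose and none fell; in FG follicles phf12b and emsy rose and sap18 fell. These are 1 and 3 of 18 rows, against 15.1% and 23.5% of all genes. PHF12 is a PHD finger protein of the complex, and phf12b rose from 0.182 ± 0.134 to 0.718 ± 0.357 FPKM in eggs (SD, n = 5; log2 change 0.52, limma adjusted p = 0.0150) and from 0.196 ± 0.191 to 1.21 ± 0.213 FPKM in FG follicles (SD, n = 4; 0.89, adjusted p = 0.000380). Its mean is under 1 FPKM in every group but mutant FG follicles, so it passed the filter through libraries where it is high. The egg change was 0.39 with adjusted p = 0.144 within egg libraries 1 to 3. The gene emsy rose from 1.96 ± 0.331 to 3.60 ± 0.855 FPKM in FG follicles (SD, n = 4; 0.62, adjusted p = 0.00205). In eggs it was at 0.749 ± 0.0957 and 0.512 ± 0.0903 FPKM, and the difference of the changes was -0.83 (adjusted p = 0.00684). SAP18 is also part of an RNA-binding complex, and sap18 fell from 130.3 ± 24.3 to 81.5 ± 17.0 FPKM in FG follicles (SD, n = 4; -0.67, adjusted p = 0.0121, or 0.0636 as TPM).

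Of the core genes, hdac1 and rbbp4 were abundant and did not pass in either stage. The deacetylase gene hdac1 was at 202.6 ± 13.5 FPKM in wild-type eggs and 202.6 ± 31.7 in mutant eggs (SD, n = 5), and at 83.7 ± 12.4 and 79.0 ± 5.76 in FG follicles (SD, n = 4; limma adjusted p = 0.723). The histone chaperone gene rbbp4 was at 195 ± 35.7 and 168 ± 23.2 FPKM in eggs and at 76.4 ± 9.45 and 76.0 ± 5.49 in FG follicles (adjusted p = 0.992). Levels of hdac1 in wild-type eggs were thus far above those of sinhcaf and of every scaffold gene.

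Factors that recruit SIN3, such as the MAX partners of the MXD and MNT families and the neuronal repressor REST, had 0 of 12 tested genes past limma's adjusted threshold in either stage, with 0 in eggs and 2 in FG follicles at an unadjusted p under 0.05. Over all tested genes 15.1% passed in eggs and 23.5% in FG follicles, against which this list and those of the other complexes are to be read. The nearest was rest in FG follicles, at 4.58 ± 0.877 and 7.13 ± 1.44 FPKM (SD, n = 4; 0.54, adjusted p = 0.0514). The difference of the changes, eggs minus FG follicles, passed for 1 of the 12 genes, rest, and was negative, against 6.95% of tested genes. Among other co-repressor complexes, the NuRD remodeller gene chd4b rose from 5.03 ± 2.50 to 9.73 ± 0.341 FPKM in FG follicles (0.93, adjusted p = 0.0111), and chd4a fell by 0.31 (adjusted p = 0.0276), 2 of 10 tested NuRD genes. In eggs 0 of 10 NuRD genes passed by limma, with 2 at an unadjusted p under 0.05. The chd4a call was lost in 8 of 16 alternatives, among them leaving out wild-type FG library 1 or 2 or mutant FG library 1, 2 or 3 (adjusted p 0.0507 to 0.0665). The CoREST gene hmg20b rose by 0.60 in FG follicles (adjusted p = 0.0384). The hmg20b call was lost in 9 of 16 alternatives, among them leaving out wild-type FG library 4 (0.37, adjusted p = 0.143) or mutant FG library 1, 2 or 3 (adjusted p = 0.0878, 0.0585 and 0.102). Of 4 tested NCoR genes, hdac3, the deacetylase of that complex, rose by 2.73 in eggs (adjusted p = 2.41e-09) and by 2.25 in FG follicles (adjusted p = 1.26e-07), and tbl1xr1b fell by 0.82 in FG follicles (adjusted p = 0.00101). None of the 4 symbols listed for the MiDAC complex was matched.

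Likeness to sinhcaf was ranked over tested genes with a unique lower-case symbol that is not a clone name. Over all 18 libraries the closest were phc2a, rdh10a, furinb, robo3 and dcaf11, with Pearson correlations of 0.909, 0.896, 0.885, 0.876 and 0.866. Libraries share genotype and stage, so these values describe group levels as much as fish. With every library centred on its group mean the closest were irx3a, adnpb, rdh10a, dedd1 and exoc2, with 0.896, 0.871, 0.864, 0.858 and 0.836. In mutant eggs and mutant FG follicles adnpb averaged only 0.0124 and 0.0246 FPKM, and rdh10a 0 and 0.00478 FPKM. The correlations of adnpb and rdh10a thus rest mostly on the wild-type libraries. The partner closest to sinhcaf after centring was brms1la at 0.657, with rank 111 among the genes so ranked. Wild-type egg library 4 was the highest of its group for both genes, and wild-type FG library 4 the lowest of its group. The correlation of brms1la with sinhcaf leans on these libraries, and its value without them was not tested. Among pairs of members the highest centred correlations were 0.845 for sin3aa with brms1lb, 0.844 for brms1la with arid4a and 0.771 for sin3b with sap130a. The lowest was -0.578 for sap30l with arid4a. In eggs the set of libraries is common to such pairs.

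Neighbours on the chromosome were looked up by order in the RefSeq annotation of another assembly, GRCz12tu. Of the nearest 3 genes on each side of sinhcaf, 4 were tested, btg1, caprin2, dennd5b and tcp11l2, and none passed in either stage by limma. The smallest adjusted p was 0.129, for dennd5b in FG follicles, where wild type had 2.78 FPKM and mutants 4.64 FPKM. Near sin3b the small GTPase gene rhoaa rose from 2.26 to 4.42 FPKM in FG follicles (0.70, adjusted p = 0.00632), while ndufb11 and acbd6 did not pass. Near brms1la the cytokine gene il17a/f2 fell from 4.32 to 1.53 FPKM in FG follicles (-1.03, adjusted p = 0.0460), a call lost in 13 of 16 alternatives, 7 of them leaving out 1 of the libraries other than wild-type FG library 2 (adjusted p 0.0551 to 0.124). There lrrc57, ralgapa1 and nfkbiab did not pass.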

How the data were processed

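RNA was sequenced from 18 libraries, with the TruSeq Stranded mRNA kit per the labels. The authors deposited FPKM values, and the submitters' processing notes name Trimmomatic, HISAT2, Cufflinks, HTSeq and GRCz11 without versions or roles. The annotation, strand setting and treatment of shared reads are not given in the sources used here. All 18 library columns were used. Depth is unknown, so precision rests on the spread between fish.

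FPKM were taken as log2(FPKM + 1), which understates changes of low genes. A gene entered the test when 4 or more libraries reached 1 FPKM, which held for 10547 of 25432 genes. A model of 4 group means was fitted with limma 3.58.1 (eBayes with trend) under R 4.3.3, tables being read by data.table (version 1.17.8), and p-values were adjusted over all tested genes by Benjamini-Hochberg at 0.05; intervals are 95%. The level of sinhcaf was also compared with two-sided exact permutation tests. Tables and figures were made with Python 3.11.15, pandas 2.3.3, numpy 2.4.6 and matplotlib 3.10.9. The code was tested on simulated data.

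Members, lists, the naming rule and settings were chosen with earlier results of these data known. Named were all members, at most 4 called genes per other list and stage, the 5 genes most like sinhcaf by either measure and the nearest 3 neighbours on each side. Added after their values were seen were sinhcafl, uncalled genes of lists (sap130b, phf12a, hdac1, rbbp4, rest) and the SAP30L-like row. Deviations from the group means of same-numbered libraries correlated at 0.121, 0.112, 0.359, 0.447 and 0.239 across tested genes in eggs, above the threshold of 0.1 used here. By these deviations wild-type egg libraries 3 and 4 were most like the same-numbered mutant egg libraries. Wild-type egg libraries 1, 2 and 5 were instead most like mutant egg libraries 3, 1 and 4. Egg libraries 4 and 5 also stood apart in both genotypes, so these correlations do not show pairing by number. Between wild-type eggs and wild-type FG follicles, libraries numbered 1 to 4 correlated at 0.190, 0.275, -0.049 and -0.110. Between eggs and FG follicles of mutants the values were -0.181, 0.017, -0.033 and -0.137. The labels do not say what a number marks, or whether it marks the same fish across groups. Sequences and coordinates were not used here. Part of the CoREST list is not reported here.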

Additional observations from a re-analysis of the deposited data

Results flagged for a closer look

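Wild-type FG library 4 was the lowest of its group for brms1la, at 17.7 FPKM against 23.1 for the next, a gap of 0.854 of the group's range, which is more than Dixon's test allows. It was the only such library among 52 groups of libraries looked at over 13 rows, where chance gives about 1 in 20. Finding 1 such library is thus not more than chance gives. Wild-type FG library 4 was also the lowest of its group for sinhcaf, at 0.615 FPKM. The cause was not tested.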

How the results depend on the processing

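Fold changes of low genes shrink on this scale, and depth is unknown. For sinhcaf in eggs (-0.42) the change with the replicate block was -0.42 with exact permutation p = 0.0625. It was -0.33 in egg libraries 1 to 3 and -0.57 in 4 and 5, with exact p of 0.1 and 0.333, the smallest such designs allow, and -0.50 to -0.27 on leaving out each library. It was -1.08 with a pseudocount of 0.1, and -0.75 as TPM and -0.80 without mitochondrial genes, both with exact permutation p = 0.0159. In FG follicles (-0.90) it was -1.56 with a pseudocount of 0.1, and leaving out each library gave -1.19 to -0.75. The number of genes called in FG follicles was 2475, and 3753 with no filter. For the difference between stages it was 733, but 372 with a pseudocount of 0.1, 473 as TPM, 469 as TPM without mitochondrial genes and 1308 with egg set as a term. The count of members for that difference was 0, and 1 after median-of-ratios scaling, as TPM, with the replicate block, in egg libraries 1 to 3 and with egg set as a term; leaving out each library gave 0 to 1, and 1 to 2 for the genotype change in eggs. Fitting only the groups compared was not run for that difference.

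Some signs turned, for sin3b in wild type and arid4a in mutants between calls in opposite directions, and the cause was not tested. After median-of-ratios scaling the difference for sin3ab was -0.074, and the stage changes were 0.33 for sin3b, 0.16 for sap130a and 0.23 for arid4a in wild type and 0.52 for arid4a in mutants. As TPM they were 0.045 for brms1lb in FG follicles, -0.18 for the sin3ab difference and -0.13 for sin3ab between stages in mutants, and 0.075 for sap30l in eggs without mitochondrial genes. Egg libraries 1 to 3 gave 0.13 for sap30l and -0.027 for the sin3ab difference; 4 and 5 gave 0.0090 for sin3ab, 0.10 for sin3b and 0.11 for sinhcafl in eggs and 0.064 for sap130a between stages. Leaving out each library gave -0.15 to 0.14 for sap30l and -0.077 to 0.21 for sap130a in eggs, -0.15 to 0.27 for brms1 and -0.25 to 0.057 for brms1lb in FG follicles, and -0.033 to 0.13 for the sin3ab difference. The share of calls that were higher moved from 48.8% to 38.5% (median-of-ratios), 34.4% (TPM) and 65.3% (TPM without mitochondrial genes) in eggs, and from 42.9% to 59.9% (TPM) in FG follicles. For the difference it moved from 60.8% to 45.7% (median-of-ratios) and 34.0% (TPM), and between stages from 26.7% to 46.1% in wild type and from 28.7% to 46.7% in mutants (median-of-ratios). With the replicate block 1948 genes were called in eggs (1588 without), 2772 in FG follicles and 856 for the difference. Same-numbered FG libraries deviated with correlations of -0.118 to -0.023, which does not show pairing by number. In FG follicles the block called sap130a as well (0.42, limma adjusted p = 0.0321).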
